A study of Homo sapiens with 4 samples.

Results

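YAP1 and WWTR1 (also called TAZ) are transcriptional coactivators that have no DNA-binding domain of their own and act on genes through the TEAD proteins. The Hippo kinases STK3 and STK4 activate LATS1 and LATS2, which phosphorylate both coactivators so that 14-3-3 proteins hold them in the cytoplasm or they are degraded. Among genes they switch on are secreted matricellular proteins and several inhibitors of the pathway itself, and the actin cytoskeleton acts on the pathway in epithelial cells. The genes described here are 2 coactivators (YAP1, WWTR1), 2 of their DNA-binding partners (TEAD1, TEAD4), and 6 genes that they induce (CTGF, CYR61, AMOTL2, AJUBA, LATS2, FJX1), of which AMOTL2, AJUBA and LATS2 also act in the pathway. They were chosen by gene name, CTGF and CYR61 being the names used in the deposited table for CCN2 and CCN1. All 10 were found, among 58735 genes in the table.

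RNA-seq was done on OVCAR8, an established ovarian cancer cell line, in 4 libraries. The 2 shFAM49B libraries came from cells given GIPZ lentiviral plasmids with short hairpins against FAM49B (also named CYRIB), a RAC1-binding protein that limits actin branching, and the 2 shCON libraries from cells given a scrambled hairpin. Both groups were lipofected and harvested 36 h later, per the labels' protocols, although the design text of the series calls the knockdown stable; the sources used here do not give the hairpin sequence, any selection or the number of clones. The comparison asks what changes in these cells when FAM49B is knocked down, in a study of growth and MAPK signalling per its title. FAM49B itself measured 1.06 and 1.02 FPKM (reads per gene length, relative to depth) in the shFAM49B libraries, against 7.41 and 7.60 FPKM in the shCON libraries, 7.21-fold lower.

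Reads in genes, as recovered from the FPKM values, came to 15639559 to 16875353 per library. In these libraries 3 reads in a gene of 1 kb correspond to 0.162 to 0.200 FPKM. Of markers of ovarian carcinoma, KRT8 stood at 37.4 to 41.7 FPKM over the 4 libraries, while PAX8 was at most 0.112 FPKM and SOX17 was listed at 0 in all of them; EPCAM averaged 0.237 ± 0.152 FPKM in shFAM49B and 2.95 ± 0.0148 FPKM in shCON. Summed markers of fibroblasts (6.09 and 6.66 FPKM in shFAM49B, 5.79 and 6.43 in shCON, where COL1A1 made up most) and endothelium (0.190 and 0.226 FPKM in shFAM49B, 0.457 and 0.501 in shCON, with KDR highest) were low. All 7 markers of basal and squamous epithelium were lower in shFAM49B (TP63 passed the filter only through shCON), with summed levels of 34.5 and 37.8 FPKM there and 571 and 509 FPKM in shCON. KRT5 alone averaged 13.5 ± 0.221 FPKM in shFAM49B and 207 ± 18.0 FPKM in shCON. The part of these markers in the results below was not tested, and in bulk RNA fewer cells of a type and less RNA per cell cannot be told apart.

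Promoter sequence is shown for 3 of the 6 induced genes because TEAD proteins bind the letters GGAATG, and the copies of these letters differ between them: CTGF holds several, LATS2 holds 1 and FJX1 holds none. Each window runs from 250 bases before to 50 bases after the RefSeq start on GRCh38.p14, 5′ to 3′ on the strand of the gene, in lower case with every GGAATG or its reverse complement CATTCC in capitals. The CTGF window is chr6:131951323-131951622 (minus strand), that of LATS2 is chr13:21061537-21061836 (minus strand) and that of FJX1 is chr11:35618210-35618509 (plus strand).
CTGF: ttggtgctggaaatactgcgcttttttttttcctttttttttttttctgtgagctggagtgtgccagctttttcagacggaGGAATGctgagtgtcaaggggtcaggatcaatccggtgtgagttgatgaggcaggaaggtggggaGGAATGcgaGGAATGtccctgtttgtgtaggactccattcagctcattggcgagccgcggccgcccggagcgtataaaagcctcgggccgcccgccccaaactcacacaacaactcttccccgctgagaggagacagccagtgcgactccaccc
LATS2: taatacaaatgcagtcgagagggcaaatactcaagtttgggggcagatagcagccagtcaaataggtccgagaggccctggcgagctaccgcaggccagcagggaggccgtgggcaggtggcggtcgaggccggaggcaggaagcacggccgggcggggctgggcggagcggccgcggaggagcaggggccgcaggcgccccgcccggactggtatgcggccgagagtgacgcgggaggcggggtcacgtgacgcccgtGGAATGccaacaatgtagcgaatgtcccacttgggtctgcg
FJX1: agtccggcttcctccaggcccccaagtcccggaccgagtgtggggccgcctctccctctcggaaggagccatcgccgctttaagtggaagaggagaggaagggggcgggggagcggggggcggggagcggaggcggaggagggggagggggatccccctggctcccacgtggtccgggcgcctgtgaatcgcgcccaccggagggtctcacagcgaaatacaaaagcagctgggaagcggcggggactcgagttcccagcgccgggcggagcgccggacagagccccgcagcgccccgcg

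The 3 copies in CTGF begin 169, 104 and 95 bases before the start, and the copy in LATS2 begins 9 bases after it. Of the 35116 RefSeq windows of this length, 14.03% hold GGAATG on either strand and 0.128% (45 windows) hold 3 or more copies. RefSeq windows were found for 7 of the 10 genes, 10 windows in all, and not for TEAD1, TEAD4 and CYR61. The YAP1 window held 1 copy, 162 bases before the start, and AMOTL2 and AJUBA held 1 copy each in the window of their second start (69 and 59 bases before it) and none in that of the first. Neither WWTR1 window held a copy, and their starts lie 33441 and 78689 bases from the gene start in the deposited table. For the second starts of AMOTL2 and AJUBA this distance is 1032 and 5800 bases. The AP-1 letters TGANTCA, searched on both strands because AP-1 often binds near TEAD, were in 7.71% of all windows and in none of these 10, so no copies of the 2 motifs overlapped. A match is a description of the letters only.

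Of the 10 genes, 9 passed the filter of a mean of 1 FPKM over the 4 libraries and were tested by limma on log2(FPKM + 1), with p-values adjusted over all 13775 tested genes. YAP1, WWTR1, TEAD1, AJUBA and FJX1 fell in shFAM49B, TEAD4 rose, and CYR61, AMOTL2 and LATS2 were not called. CTGF lay under the filter with a mean of 0.638 FPKM and had the greatest ratio of the 10 genes, 6.54-fold lower in shFAM49B. At an adjusted p under 0.05, 42.2% of all tested genes were called in either direction. Of the 9, 5 (55.6%) were lower, where 15.8% of all tested genes were lower, and 1 (11.1%) was higher, where 26.4% were. The genes were chosen with earlier results of these data known, so these shares are no test of the set. Without shFAM49B replicate 2 or either shCON library, WWTR1 and TEAD1 were no longer called. Fewer genes were called over all tested genes as well. Both shFAM49B libraries lay under both shCON libraries for 7 of the 9 and above them for 1, against 31.6% and 43.1% of tested genes (74.7% in either direction). The median log2 fold change was -0.32 over the 9 genes and 0.05 over all tested genes. The fit was repeated with other scalings of the libraries. They were TPM (each library brought to 1 common sum of values per length) and the recovered reads (their total in each library as divisor). Further scalings were voom (limma on the recovered reads themselves), quantile normalization, and median ratios over tested genes.

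**Figure D1:**
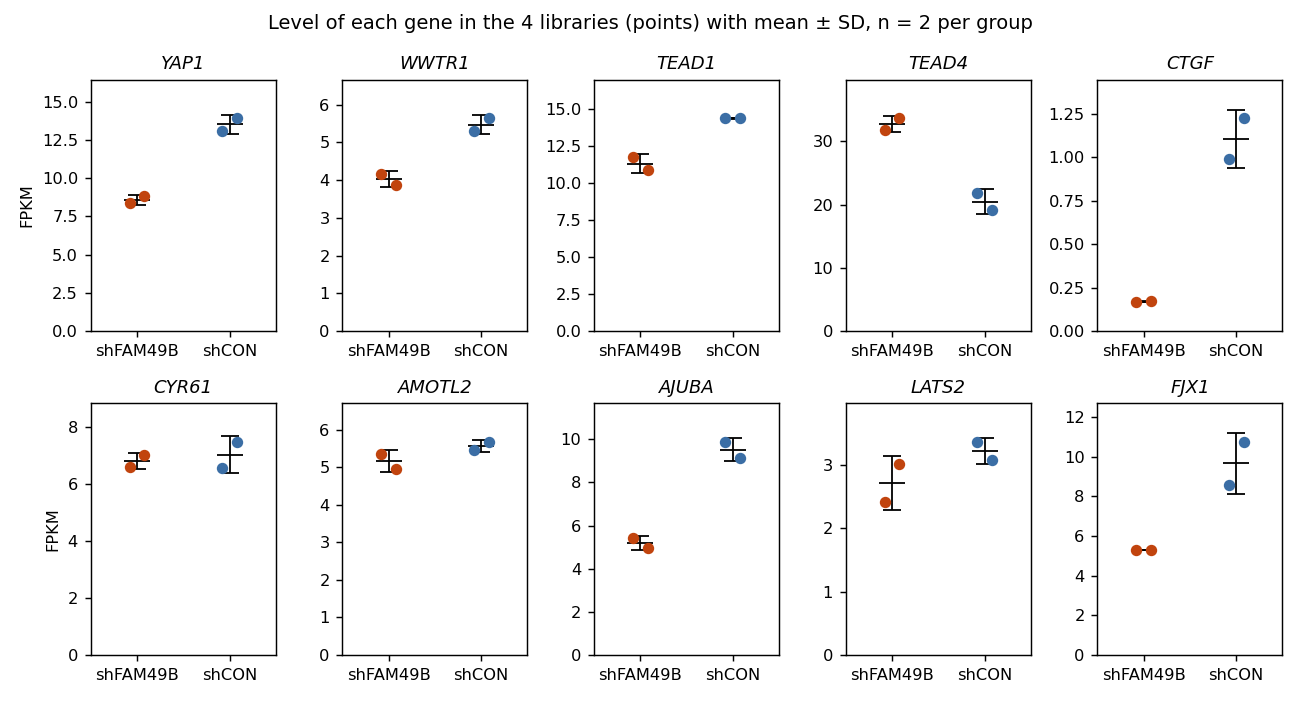
FPKM (vertical axes, each from 0) of the 10 genes in the 2 shFAM49B libraries and the 2 shCON libraries, as points with mean ± SD. The groups do not overlap except in CYR61, and TEAD4 is the gene that is higher in shFAM49B.

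The coactivator genes were both lower in shFAM49B. YAP1 (ENSG00000137693, chromosome 11, 102110461 to 102233423, plus strand, GRCh38) had 8.36 and 8.83 FPKM in the shFAM49B libraries and 13.1 and 13.9 FPKM in the shCON libraries. Every shFAM49B value was under every shCON value, with means of 8.60 ± 0.333 FPKM and 13.5 ± 0.59 FPKM (SD, n = 2 each). YAP1 fell 1.57-fold, a log2 fold change of -0.60 (SE 0.0665, limma adjusted p = 0.00316), and 6.50% of tested genes had a lower fold change.

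WWTR1 (ENSG00000018408, chromosome 3, 149517235 to 149736714, minus strand) encodes TAZ, the paralog of YAP. It measured 4.17 and 3.88 FPKM in shFAM49B and 5.29 and 5.64 FPKM in shCON, again without overlap. WWTR1 fell 1.36-fold (log2 fold change -0.36, SE 0.0767, limma adjusted p = 0.0164). This call was lost with low genes kept in the fit (adjusted p = 0.0592) and without shFAM49B replicate 2, shCON replicate 1 or shCON replicate 2 (adjusted p = 0.0761, 0.0669 and 0.101). YAP1 was the more abundant of the pair per length in all 4 libraries, at 66.7% and 69.5% of their summed FPKM in shFAM49B and 71.2% in each shCON library. Their sum was 12.5 and 12.7 FPKM in shFAM49B, against 18.4 and 19.6 FPKM in shCON, 1.504-fold lower.

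The TEAD genes, which encode the DNA-binding partners, moved in opposite directions. TEAD1 (ENSG00000187079, chromosome 11, 12674591 to 12944483, plus strand) stood at 11.8 and 10.9 FPKM in the shFAM49B libraries, against 14.4 FPKM in both shCON libraries. TEAD1 fell 1.27-fold (log2 fold change -0.32, SE 0.0649, limma adjusted p = 0.0145), a call lost without shFAM49B replicate 2, shCON replicate 1 or shCON replicate 2 (adjusted p = 0.0661, 0.0733 and 0.0697). TEAD4 (ENSG00000197905, chromosome 12, 2959330 to 3040673, plus strand) measured 31.8 and 33.7 FPKM in shFAM49B and 21.8 and 19.1 FPKM in shCON. Both shFAM49B libraries were the higher ones. TEAD4 rose 1.60-fold, with a log2 fold change of 0.65 (SE 0.0803, limma adjusted p = 0.00381), and it was called higher under every alternative run.

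The other TEAD genes bind the same coactivators. TEAD3 measured 5.70 and 5.81 FPKM in shFAM49B and 4.69 and 4.39 FPKM in shCON, and rose 1.27-fold as deposited (limma adjusted p = 0.0267), but was not called without a filter, as TPM, relative to recovered reads, with voom, by median ratios over tested genes or without any 1 of the 4 libraries (adjusted p = 0.0506 to 0.453). TEAD2 measured 9.48 and 10.4 FPKM in shFAM49B and 9.05 and 9.25 FPKM in shCON and was not called (log2 fold change 0.11, adjusted p = 0.266), with a sign that turned as TPM, relative to recovered reads and with voom. TEAD4 was the most abundant TEAD gene per length in every library. It made up 54.2% and 55.4% of the summed TEAD FPKM in shFAM49B and 43.7% and 40.6% in shCON, while TEAD1 made up 20.02% and 17.9% in shFAM49B and 28.8% and 30.5% in shCON. The ratio of TEAD4 to TEAD1, which a single factor per library does not change, was 2.71 and 3.10 in shFAM49B, against 1.52 and 1.33 in shCON, 2.04-fold higher. With 2 libraries against 2, an exact permutation test of such a ratio cannot go below p = 0.333, so none is given. All 4 TEAD genes together came to 58.8 and 60.8 FPKM in shFAM49B and 49.97 and 47.1 FPKM in shCON.

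**Figure D2:**
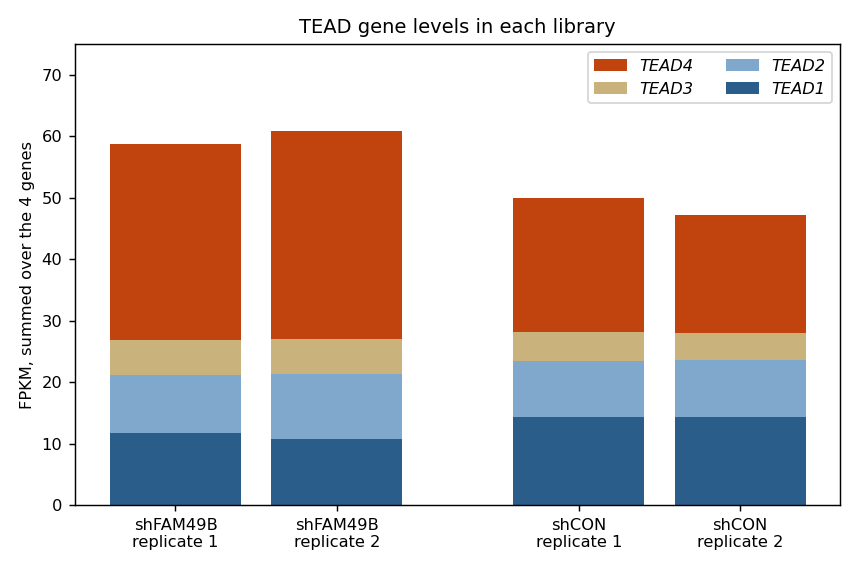
FPKM of TEAD1, TEAD2, TEAD3 and TEAD4 stacked for each library (vertical axis, summed FPKM), the 2 shFAM49B libraries left of the 2 shCON libraries. The TEAD4 segment is larger in shFAM49B, at 31.8 and 33.7 FPKM, than in shCON, at 21.8 and 19.1 FPKM.

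VGLL proteins compete with YAP and TAZ for TEAD. VGLL4 was the only VGLL gene that passed the filter, at 2.76 and 2.87 FPKM in shFAM49B and 3.06 and 3.15 FPKM in shCON (adjusted p = 0.352, called lower as TPM, relative to recovered reads and with voom). VGLL3 had 0.467 and 0.505 FPKM in shFAM49B and 1.11 and 0.919 FPKM in shCON. VGLL2 had 0.468 and 0.899 FPKM in shFAM49B and 1.14 and 1.02 FPKM in shCON. VGLL1 was listed at 0 in every library but shCON replicate 2 (0.0351 FPKM). Of the 6 relatives TEAD2, TEAD3 and VGLL1 to VGLL4, 3 were tested, of which 1 was higher, 0 lower and 2 not called. Over all tested genes 26.4% were higher and 15.8% lower, so this count does not set the relatives apart.

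CTGF and CYR61 encode secreted matricellular proteins of the CCN family and are widely used reporters of YAP and TAZ activity. CTGF was 6.54-fold lower in shFAM49B while the CYR61 groups overlapped, a difference between the 2 genes that was not tested. CTGF (ENSG00000118523, chromosome 6, 131948176 to 131951373, minus strand), whose promoter with 3 GGAATG copies is printed above, stood at 0.167 and 0.171 FPKM in shFAM49B and at 0.988 and 1.23 FPKM in shCON. These values rest on 6 and 6 reads in the shFAM49B libraries, against 39 and 53 reads in the shCON libraries. In the fit without a filter on low values, over 32758 genes, CTGF had a log2 fold change of -0.85 (SE 0.126, limma adjusted p = 0.0371), a scale that understates the change of so low a gene. CYR61 (ENSG00000142871, chromosome 1, 85580761 to 85583962, plus strand) measured 6.61 and 7.02 FPKM in shFAM49B and 6.57 and 7.49 FPKM in shCON. The shFAM49B values lay inside the shCON range. The log2 fold change of CYR61 was -0.04 (95% interval -0.25 to 0.17, limma adjusted p = 0.75), and its sign turned without shFAM49B replicate 1 or shCON replicate 2. CYR61 was the more abundant of the pair in all 4 libraries.

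AJUBA and FJX1 had the lowest log2 fold changes of the tested genes in the set. AJUBA (ENSG00000129474, chromosome 14, 22971174 to 22982642, minus strand) encodes a LIM-domain protein that binds LATS kinases and restrains them. It measured 5.43 and 4.95 FPKM in shFAM49B, against 9.88 and 9.14 FPKM in shCON, with a wide gap between the groups. AJUBA fell by 0.76 on the log2 scale (SE 0.0769, 1.83-fold lower, limma adjusted p = 0.00261), and 3.70% of tested genes had a lower fold change. Its relative LIMD1, which also binds LATS kinases, was not called (7.52 and 7.90 FPKM in shFAM49B, 7.56 and 7.57 FPKM in shCON). AJUBA made up 40.5% and 36.5% of the summed FPKM of AJUBA, LIMD1 and WTIP in shFAM49B and 54.9% and 52.9% in shCON.

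FJX1 (ENSG00000179431, chromosome 11, 35618419 to 35620868, plus strand) is the human homologue of Drosophila four-jointed, a Golgi kinase that modifies Fat and Dachsous cadherins. It measured 5.30 and 5.29 FPKM in shFAM49B and 8.57 and 10.7 FPKM in shCON. The shCON libraries differed from each other more than the shFAM49B libraries did, but both lay above them. FJX1 fell by 0.75 on the log2 scale (SE 0.11, 1.82-fold lower, limma adjusted p = 0.00582). Its promoter window, printed above, holds no GGAATG.

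AMOTL2 and LATS2, which YAP induces and which in turn inhibit YAP, were not called. AMOTL2 (ENSG00000114019, chromosome 3, 134355874 to 134375479, minus strand), an angiomotin that tethers YAP at junctions, measured 5.36 and 4.95 FPKM in shFAM49B and 5.45 and 5.68 FPKM in shCON. The groups were separate by a narrow margin. Its log2 fold change was -0.09 (95% interval -0.28 to 0.09, limma adjusted p = 0.35). LATS2 (ENSG00000150457, chromosome 13, 20973032 to 21061547, minus strand), a kinase that phosphorylates YAP and TAZ, measured 2.42 and 3.02 FPKM in shFAM49B and 3.37 and 3.07 FPKM in shCON. Its highest shFAM49B value nearly reached its lowest shCON value, and the log2 fold change was -0.19 (95% interval -0.47 to 0.10, limma adjusted p = 0.236). Both genes were called lower when values were rescaled to TPM (AMOTL2 -0.34, adjusted p = 0.0338; LATS2 -0.45, adjusted p = 0.0411), relative to recovered reads (adjusted p = 0.039 and 0.0486) or with voom (adjusted p = 0.00948 and 0.00734).

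**Figure D3:**
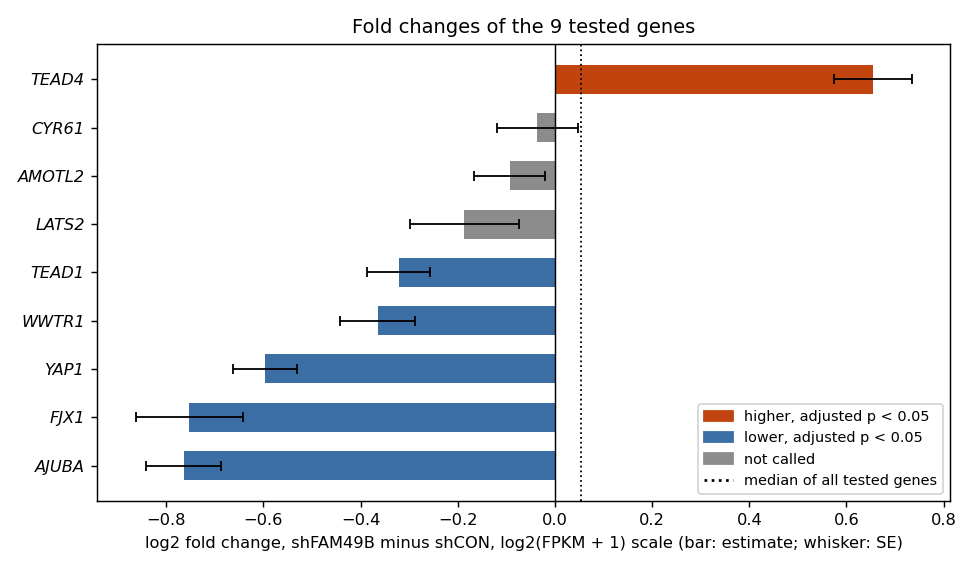
Log2 fold change of shFAM49B minus shCON on the log2(FPKM + 1) scale (horizontal axis) for the 9 tested genes, as bars with standard errors, coloured by the limma call. TEAD4 stands at 0.65 and AJUBA and FJX1 at -0.76 and -0.75, with the dotted median of all tested genes at 0.05.

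In order of level per length, TEAD4, TEAD1 and YAP1 led in this order in both groups, and LATS2 and CTGF were last. FJX1, AJUBA and AMOTL2 stood at 5.29 ± 0.00413, 5.19 ± 0.340 and 5.15 ± 0.293 FPKM in shFAM49B, neighbours that did not differ beyond their spread. In shCON the neighbours with overlapping values were FJX1 (9.66 ± 1.54 FPKM) with AJUBA (9.51 ± 0.524), and AMOTL2 (5.56 ± 0.160) with WWTR1 (5.47 ± 0.249). CYR61 came next after YAP1 in shFAM49B, at 6.82 ± 0.288 FPKM, and after FJX1 and AJUBA in shCON, at 7.03 ± 0.652 FPKM. The levels of the tested genes ran from the percentile 28.3 of all tested genes (LATS2) to 88.3 (TEAD4), on the mean over 4 libraries.

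Nearness in level over the 4 libraries was taken as Euclidean distance of log2(FPKM + 1) among the 11400 protein-coding genes that passed the filter. The 3 nearest to YAP1 were PAPSS2 (distance 0.0957), FRMD8 (0.0966) and NOL6 (0.102). PAPSS2 had 8.77 and 9.30 FPKM in shFAM49B and 13.4 and 13.9 FPKM in shCON. For CTGF, which itself lay under the filter, they were CYP1A1, SLC2A3 and FUT1 at distances of 0.609, 0.635 and 0.643. Genes under the filter were not searched, so closer genes may exist. These 3 genes were under 1 FPKM in both shFAM49B libraries and passed the filter only through shCON.

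Several of the genes share bases with other genes, and whether counting used strand is not stated in these sources. Of the exon bases of YAP1, 9.97% are also in exons of AP000942.2 on the opposite strand, which was listed at 0 in all libraries. WWTR1-AS1 shares 9.45% of the exon bases of WWTR1 and reached at most 0.270 FPKM. AL133346.1 shares 8.34% of the exon bases of CTGF, and it had 0 FPKM in both shFAM49B libraries and 0.120 and 0.109 FPKM in shCON. No overlapping gene of any of the 10 passed the filter.

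The directions rest in part on how the libraries are scaled. Over all genes 3642 were higher and 2170 lower as deposited, against 2926 and 2647 by median ratios over tested genes, 2647 and 2446 after quantile normalization, 1597 and 4362 as TPM, 1722 and 4173 relative to recovered reads and 2060 and 5020 with voom. TPM moved the log2 fold changes of all genes by a median of -0.24 and recovered reads by -0.19. Under these 5 other scalings YAP1 ranged from -0.88 to -0.66, AJUBA from -1.10 to -0.78, FJX1 from -1.09 to -0.79 and TEAD4 from 0.43 to 0.59, each called in every case. Relative to the median of all genes, TEAD4 stood at 0.60 both as deposited and as TPM, and YAP1 at -0.65 as deposited and -0.71 as TPM. WWTR1 and TEAD1 were also called lower under each of the 5, and CYR61 under none.

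**Figure D4:**
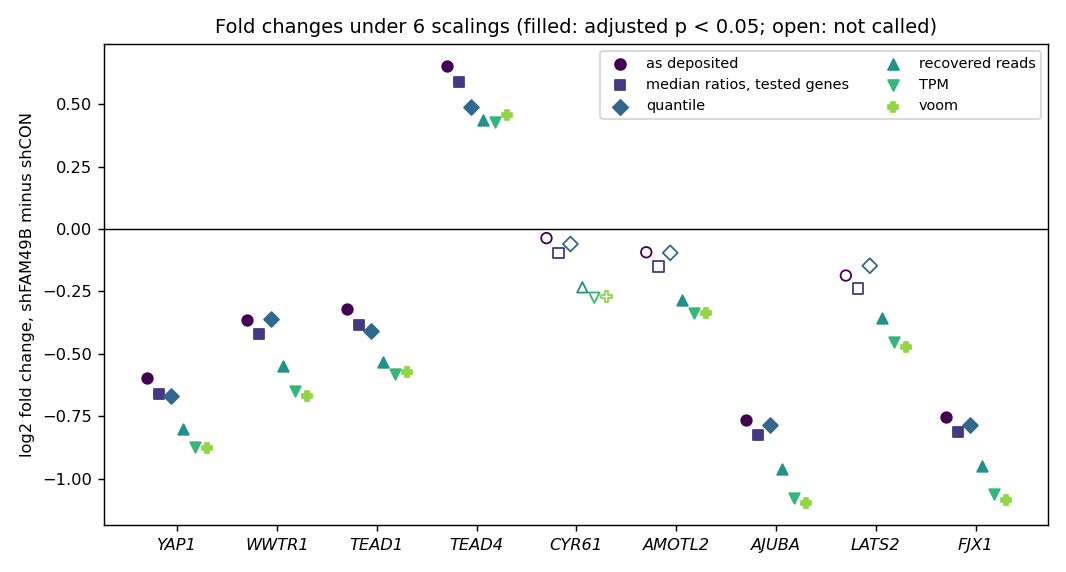
Log2 fold change of shFAM49B minus shCON (vertical axis) of the 9 tested genes under 6 scalings of the libraries, filled where the limma adjusted p was under 0.05. TEAD4 lies above 0 and YAP1, WWTR1, TEAD1, AJUBA and FJX1 below 0 throughout, and AMOTL2 and LATS2 are filled under 3 of the 6.

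Of 17 other YAP and TAZ targets 12 were tested, and 6 (50%) were lower, 1 (8.33%) higher and 5 not called, where 15.8% of all tested genes were lower and 26.4% higher. The median log2 fold change was -0.23, against 0.05 over all tested genes. Without any 1 library fewer of these targets were lower, as over all genes. This list too was chosen with earlier results of these data known. F3, which encodes tissue factor, averaged 1.02 ± 0.131 FPKM in shFAM49B and 10.2 ± 0.0355 FPKM in shCON, 9.94-fold lower (limma adjusted p = 0.000374). MYOF, a membrane repair protein, averaged 0.382 ± 0.0155 FPKM in shFAM49B and 4.10 ± 0.559 FPKM in shCON, 10.8-fold lower. MYOF passed the filter only through its level in shCON, so its place among the 6 lower genes is no support for the list. Both ratios exceed those of the 10 genes above. ANKRD1, a nuclear ankyrin-repeat protein, fell 1.99-fold (adjusted p = 0.0259; 0.0435 to 0.119 with 1 library left out, called only without shFAM49B replicate 1, and 0.103 without a filter), and CRIM1 fell 1.33-fold (adjusted p = 0.0102; 0.0693 without shCON replicate 1). GADD45A, a stress-induced growth arrest protein, rose 1.31-fold (adjusted p = 0.018), a call lost without a filter, under every scaling but median ratios, and without shFAM49B replicate 2 or shCON replicate 1 (adjusted p = 0.0702 to 0.197).

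The Hippo kinases and their activators were mixed, and PTPN14 is in this list and in that of targets. As deposited, STK3 was 1.42-fold higher in shFAM49B (limma adjusted p = 0.0398) and STK4 1.15-fold lower (limma adjusted p = 0.0464), both near the threshold. STK3 was not called higher as TPM or relative to recovered reads. Of 27 listed genes 22 were tested, with 7 (31.8%) lower, 3 (13.6%) higher and 12 not called, where 15.8% of all tested genes were lower and 26.4% higher (median -0.14, against 0.05 over all tested genes). As TPM 14 of the 22 were lower and none higher, where 4362 of all 13775 genes were lower. Without any 1 library fewer of the list were called in either direction, as over all genes. MOB1B, a coactivator of LATS kinases, fell to 3.62 and 3.39 FPKM in shFAM49B, against 6.43 and 6.32 FPKM in shCON (1.82-fold lower, limma adjusted p = 0.0026). MOB1A, the other MOB1 gene of the list, was more abundant and was not called as deposited (1.12-fold lower, limma adjusted p = 0.147). MOB1A averaged 24.8 ± 2.02 FPKM in shFAM49B and 27.8 ± 1.23 FPKM in shCON. FRMD6, a membrane-bound activator, fell 1.48-fold, MAP4K5, a kinase that can act on LATS, 1.46-fold, and SAV1, the scaffold of the kinases, 1.31-fold. MAP4K4, another such kinase, rose 1.25-fold as deposited (adjusted p = 0.0156) but was not called under any scaling other than median ratios over tested genes. With 1 library left out, the adjusted p reached 0.0542 for FRMD6 (lost without either shCON library), 0.0637 for MAP4K5 (without shCON replicate 2, and 0.0515 without a filter), 0.0768 for SAV1 (without shFAM49B replicate 2 or shCON replicate 1) and 0.0818 for MAP4K4 (without either shFAM49B library or shCON replicate 2). LATS1, the paralog of LATS2, measured 4.50 and 4.55 FPKM in shFAM49B and 6.17 and 5.41 FPKM in shCON (adjusted p = 0.0381, lost without any 1 library, without a filter and with no mean-variance trend, at 0.0506 to 0.200).

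Of 13 listed angiomotins and junction scaffolds 10 were tested, 3 of them (30.0%) higher and 4 (40.0%) lower. Over all tested genes 26.4% were higher and 15.8% lower. The list median was -0.12, against 0.05 over all tested genes. Without any 1 library fewer of the list were lower, as over all genes. AMOT, which shares with AMOTL2 the binding of YAP, was by far the most abundant angiomotin, at 136 and 145 FPKM in shFAM49B and 115 and 111 FPKM in shCON. AMOT was called higher as deposited (1.24-fold, adjusted p = 0.0128), but not without a filter, as TPM, relative to recovered reads, with voom or without shFAM49B replicate 2 or shCON replicate 2 (adjusted p = 0.0523 to 0.277), and its sign turned after quantile normalization. AMOTL1 was not called (14.4 and 16.0 FPKM in shFAM49B, 14.04 and 13.5 FPKM in shCON). Of the polarity proteins, PATJ rose 1.60-fold and PARD3 1.34-fold, while DLG5 fell 1.64-fold and LIN7C 1.34-fold; PARD3 was not called as TPM, relative to recovered reads, with voom or without shCON replicate 1 (adjusted p = 0.0535 to 0.115), nor LIN7C without a filter, shFAM49B replicate 2 or either shCON library (adjusted p = 0.0626 to 0.117).

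STRIPAK is the phosphatase complex that inactivates STK3 and STK4. All 19 listed genes were tested, with 5 (26.3%) lower, 3 (15.8%) higher and 11 not called, where 15.8% of all tested genes were lower and 26.4% higher (median -0.07, against 0.05 over all tested genes). As TPM 9 of the 19 were lower, where 4362 of all 13775 genes were. Without any 1 library fewer of the list were called in either direction, as over all genes. MOB4 fell 1.69-fold, the catalytic subunit PPP2CA 1.36-fold and SIKE1 1.32-fold, the last not called without shCON replicate 1 (adjusted p = 0.052). The kinase STK25 rose 1.48-fold and the scaffold subunit PPP2R1A 1.38-fold.

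Of 16 genes of the 14-3-3 family and of YAP and TAZ degradation, all tested, 2 (12.5%) were higher, 2 (12.5%) lower and 12 not called, where 26.4% of all tested genes were higher and 15.8% lower (median 0.08, against 0.05 over all tested genes). The lower count was 7 as TPM, where 4362 of all 13775 genes were lower, and 7 after quantile normalization, where 2446 were. YWHAE, a 14-3-3 protein, rose to 303 and 307 FPKM in shFAM49B, against 188 and 186 FPKM in shCON. CSNK1E, a kinase that acts in the degradation of YAP and TAZ, rose 1.45-fold (limma adjusted p = 0.00442). SFN, the epithelial 14-3-3 protein, which is also in the basal marker list, fell 9.65-fold, and GSK3B, a kinase that marks TAZ for degradation, fell 1.41-fold. RBX1 of the ubiquitin ligase measured 12.5 and 12.8 FPKM in shFAM49B and 8.88 and 11.4 FPKM in shCON (adjusted p = 0.0891; called higher, at 0.0272, without shCON replicate 2).

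**Figure D5:**
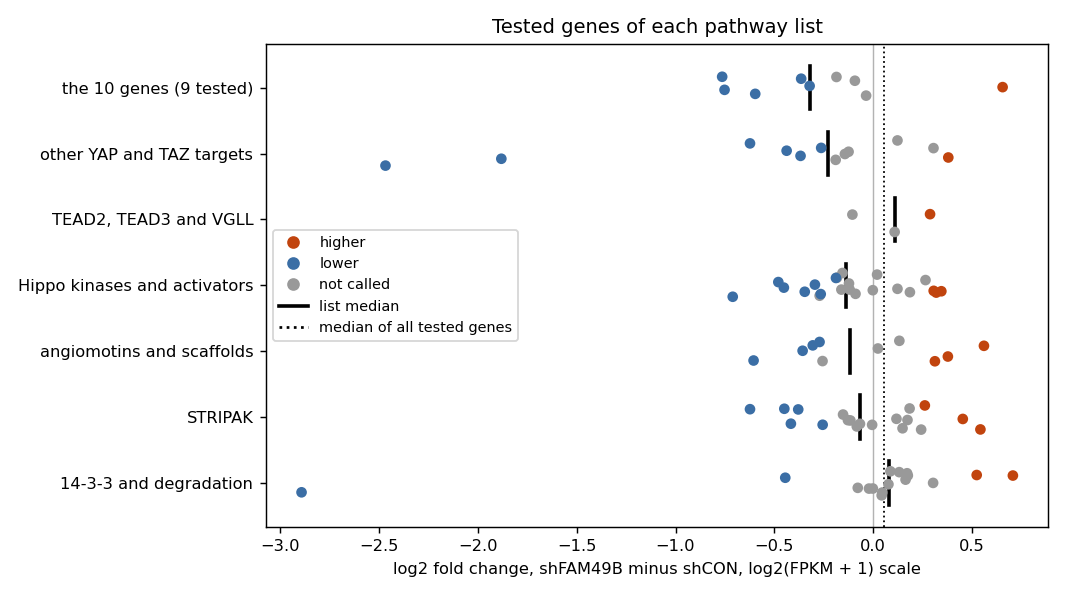
Log2 fold change of shFAM49B minus shCON on the log2(FPKM + 1) scale (horizontal axis) of each tested gene (point) by list (rows), with the median of each list as a bar and that of all tested genes as a dotted line. Points far to the left are F3 and MYOF among other targets and SFN among 14-3-3 proteins.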

How the data were processed

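RNA-seq of 4 OVCAR8 libraries was analysed, grouped by sample title. The deposited table gives FPKM per gene with coordinates and length, per the file headers; the sources used here do not give the aligner or counter. Mouse builds (GRCm38, mm10) stand in the submitters' processing notes, yet all 58735 identifiers are in human GENCODE release 29 and 58724 have its coordinates (GRCh38), including all 10 described genes. Multiplied by gene length, 100% of FPKM values above 0 were whole multiples of the worth of 1 read (tolerance 0.001 of a step), which gave the reads behind each value. Deposited denominators were 0.941 and 0.919 times the sum of these recovered reads in shFAM49B and 1.08 and 1.10 times in shCON.

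Values were tested with limma 3.58.1 (R 4.3.3) on log2(FPKM + 1) with a mean-variance trend, a filter at a mean of 1 FPKM (13775 genes), 2-sided, with Benjamini-Hochberg adjustment over all tested genes and a threshold of 0.05. Log2 fold changes understate low genes; folds are ratios of mean FPKM. There were 2 residual and 3.32 prior degrees of freedom. Libraries of a group differed by more than counting noise (chi-square per gene 3.48 in shFAM49B and 3.90 in shCON), but the labels do not say that they were separate cultures, so p-values may measure technical spread only. The procedure was run on simulated reads with 1 fixed spread for all genes and no shift in scaling between the groups. That run therefore cannot speak for calls that depend on how the real libraries are scaled. Sequences are from RefSeq.

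The members and lists were chosen with earlier results of these data known. Named genes are FAM49B, the 10 genes, up to 5 genes of smallest p per list, and TEAD, VGLL, angiomotin and LATS relatives. Also named are the 3 nearest tested genes to YAP1 and CTGF, and per marker list the highest gene and that of smallest p. Other genes were named after their values were seen (LIMD1, PAX8, SOX17, WT1, KRT18, MSLN, KRT7, MUC16, TP63, PTPN14, MOB1A, STK3, STK4, genes overlapping the 10). A further marker list is not reported here. Alternatives were other pseudocounts, filters, scalings, voom, a replicate block and leaving out each library.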

Additional observations from a re-analysis of the deposited data

How the results depend on the processing

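TEAD4, YAP1, AJUBA and FJX1 kept their direction and call under each alternative in which they were fitted, and 1 of the 10 genes was called higher throughout. Without any 1 library, 3 to 5 of the 10 genes were called lower and 1 higher, and over all genes 1897 to 2495 were higher and 1027 to 1529 lower. Counts over all genes (higher, lower) moved to 2185 and 1378 without a filter, 1597 and 4362 as TPM, 1722 and 4173 relative to recovered reads and 2060 and 5020 with voom, and 1322 were lower with a filter at 5 FPKM; the causes were not tested beyond the fewer or more genes fitted. Over 9 tested genes of the set and 124 refits, 109 kept direction and call, 7 lost the call (WWTR1 and TEAD1), 6 gained it (AMOTL2 and LATS2) and 2 turned sign: CYR61 at 0.0013 without shFAM49B replicate 1 and at 0.047 without shCON replicate 2. Other signs that turned were AMOT at -0.12 (quantile normalization), and, with TPM, recovered reads and voom in turn, AMOTL1 at -0.10, -0.079 and -0.084, TEAD2 at -0.12, -0.096 and -0.11 and COL1A1 at -0.086, -0.060 and -0.072. Same-numbered libraries did not deviate together (correlation -0.013 across genes). With so few libraries this value cannot tell whether they were prepared as pairs. With a replicate block 3429 genes were higher and 2036 lower, 5 of the 10 genes were lower and 1 higher, and no call among the 10 changed. Among the pathway lists, counts moved as follows. Without a filter, kinases had 1 higher and 3 lower, scaffolds 1 lower, STRIPAK 3 lower, and targets and TEAD relatives 0 higher. With a filter at 5 FPKM 3 targets were lower. Quantile normalization gave 7 lower retention and degradation genes and 0 higher targets. As TPM, relative to recovered reads and with voom, the lower counts were 14, 13 and 15 for kinases, 9, 8 and 11 for STRIPAK, 7, 6 and 9 for retention and degradation, and 1, 1 and 1 for TEAD relatives, while the higher counts were 0, 0 and 1 for kinases, 1 each for scaffolds and 0 each for targets and TEAD relatives. Median ratios gave 0 higher TEAD relatives. Without any 1 library, the ranges were 0 to 1 higher and 2 to 4 lower for kinases, 2 to 3 and 1 to 2 for scaffolds, 2 and 2 to 4 for STRIPAK, 0 to 1 and 3 to 4 for targets, 2 to 3 and 2 for retention and degradation, and 0 higher for TEAD relatives. The scaling by median ratios over tested genes was chosen after seeing the data. Depth limits CTGF most, at 6 reads in each shFAM49B library.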
